A study of Mus musculus with 6 samples.

Results

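The 2′-5′-oligoadenylate synthetase (OAS) genes of mouse were followed in CD11b-enriched cerebellar microglia of Fmr1 knockout mice, which model fragile X syndrome. They were chosen by gene symbol from a list of 8 (Oas1a, Oas1b, Oas1c, Oas1g, Oas2, Oas3, Oasl1 and Oasl2), of which 7 had a row among the 23491 gene symbols of the count table. Oas1b was not analysed here. The tested animals had received an intraperitoneal injection of poly(I:C), which is man-made double-stranded RNA that stands in for a virus, and the others saline (called sham in the sample titles), with 3 libraries in each group. All 6 libraries are labelled Fmr1 knockout, so no comparison with wild type was possible. The sources used here give no dose, time after injection, strain, age or sex. Whether replicates of a group were separate animals is not labelled, so p-values measure only the spread between these libraries, which may be technical.

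OAS proteins bind double-stranded RNA and then join ATP into short chains of adenosine with 2′-5′ links, called 2-5A. 2-5A is a messenger of the antiviral response that limits viral growth. OAS genes are induced by type I interferon, through a transcription factor complex, of which STAT2 and IRF9 are parts, that binds the interferon-stimulated response element (ISRE). In mouse the single human OAS1 gene is replaced by a row of Oas1 copies, of which Oas1a and Oas1g encode active synthetases and Oas1c does not. Oas2 and Oas3 are built from repeated OAS units, while Oasl1 and Oasl2 carry ubiquitin-like domains behind the OAS unit.

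The 8 genes lie on chromosome 5 in 2 clusters, Oasl2 and Oasl1 in one and the other 6 in the second, by the order of genes in RefSeq's GRCm38.p6 annotation. That annotation lists Oas1b as a transcribed pseudogene. Promoters were available in RefSeq's table (GRCm38.p6) for Oas1a, Oas1c, Oas1g, Oas3, Oasl1 and Oasl2, each covering 250 bases before to 50 bases after the annotated start. The ISRE core, searched as GAAA, any 2 bases and again GAAA on both strands, was present in 4 of these 6 promoters and in 3.44% of all 32851 promoters in the table. A longer form, the core followed directly by CT, always holds the core and was present in 3 of the 6 and in 0.271% of all. The gamma-activated sequence core, searched as TTCNNNGAA, was present in Oas1a alone of the 6, against 8.30% of all promoters. The 120 bases before the start are shown for the 4 genes with an ISRE core and for Oasl1, the gene with the largest fold change, with core matches in capitals.
Oas1a, chr5:120907526-120907645, minus strand: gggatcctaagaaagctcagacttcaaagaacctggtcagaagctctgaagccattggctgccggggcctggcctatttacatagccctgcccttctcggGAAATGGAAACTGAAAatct
Oas1g, chr5:120887614-120887733, minus strand: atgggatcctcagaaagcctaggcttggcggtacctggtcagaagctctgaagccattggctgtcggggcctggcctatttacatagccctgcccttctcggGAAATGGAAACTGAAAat
Oas1c, chr5:120812515-120812634, minus strand: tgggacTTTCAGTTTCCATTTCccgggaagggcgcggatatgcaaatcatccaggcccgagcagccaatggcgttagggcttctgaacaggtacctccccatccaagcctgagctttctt
Oas3, chr5:120777660-120777779, minus strand: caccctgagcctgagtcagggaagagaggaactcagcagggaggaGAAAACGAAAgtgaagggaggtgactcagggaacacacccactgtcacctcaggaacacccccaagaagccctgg
Oasl1, chr5:114923120-114923239, plus strand: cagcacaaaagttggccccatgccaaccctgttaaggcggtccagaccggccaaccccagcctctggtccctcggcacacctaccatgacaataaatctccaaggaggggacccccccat

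Oas1a and Oas1g carry the same stretch of overlapping core matches a few bases before the start, and their 300-base promoters were 85.3% identical in a global alignment. In Oas1c overlapping matches stand on the opposite strand, with the first base of the stretch 114 bases before the start. Oas3 has 1 match. The letters searched are absent from the Oasl1 and Oasl2 windows. A match is a description of letters and says nothing of binding.

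**Figure D1:**
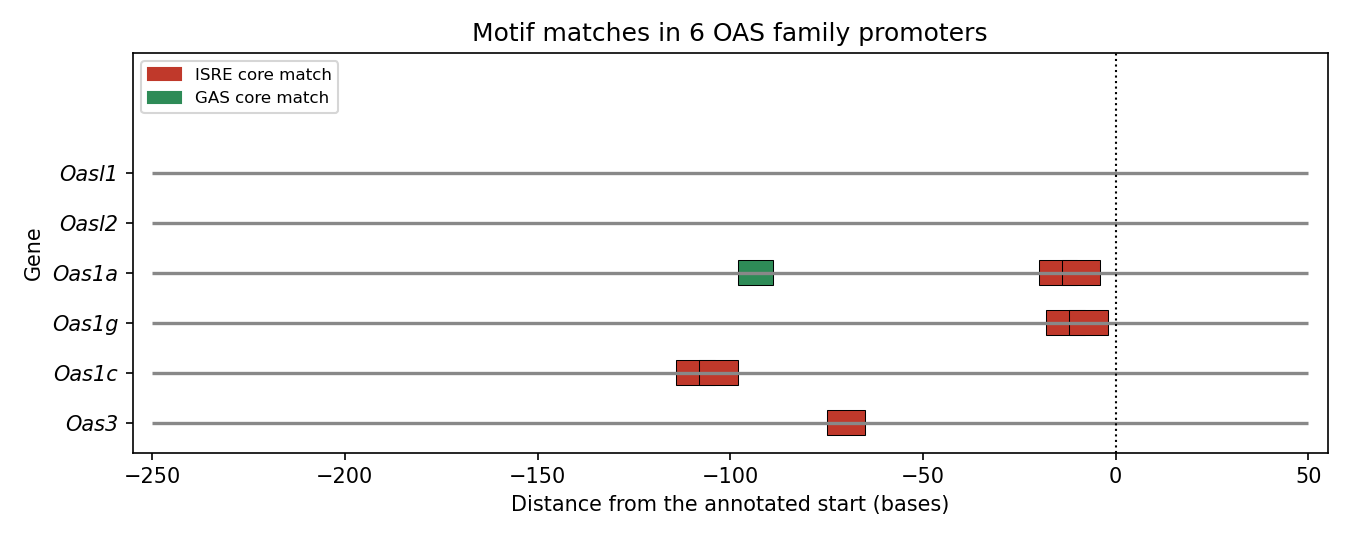
Matches to the ISRE core (red) and the gamma-activated sequence core (green) on either strand in the promoters of 6 OAS family genes, by distance in bases from the annotated start (dotted line). Oas1a and Oas1g share their matches next to the start, and Oasl1 and Oasl2 have none.

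Libraries held between 33710545 and 34899835 counts, and every member with a row had at least 79 counts in every library, so none passed the low-count filter through 1 group only. Levels are CPM, counts relative to the library total after scaling by TMM, which corrects for library composition. Microglial markers were abundant in every library, with 8 listed genes (P2ry12, Tmem119 and others) summing to between 28460 and 39127 CPM with poly(I:C) and between 36242 and 41820 CPM with saline. Other cells were also represented. The 8 neutrophil markers summed to between 442 and 2102 CPM with poly(I:C) and to 18953 CPM in saline replicate 1, against 2249 and 2197 CPM in saline replicates 2 and 3. The 8 markers of choroid plexus epithelium summed to 19249 CPM in the first poly(I:C) replicate, to 7620 and 9264 CPM in its other replicates, and to between 3941 and 8406 CPM with saline. The 4 monocyte markers summed to between 143 and 346 CPM with poly(I:C) and between 241 and 1907 CPM with saline, with the highest value again in saline replicate 1. Most of the saline sums was Chil3, at 1635, 197 and 240 CPM in replicates 1, 2 and 3, against 200, 41.5 and 64.0 CPM with poly(I:C). The other monocyte markers, Plac8, Ly6c2 and Ccr2, were higher in every poly(I:C) library than in saline replicates 2 and 3. Of the 4 monocyte markers, 0 were called in edgeR. No marker of these lists was at 0 in all libraries. In bulk RNA, a change in the number of cells of a type and a change in RNA per cell cannot be told apart.

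Most of the OAS family was higher with poly(I:C). Of the 7 genes tested, 6 rose and 0 fell in edgeR's quasi-likelihood test at a Benjamini-Hochberg adjusted p under 0.05, and DESeq2 and limma-voom also called 0 lower. Of all 14727 genes tested, 0.957% were called in edgeR, 0.883% as higher and 0.0747% as lower. DESeq2 called 448 of 14832 genes lower, and limma-voom 1608 of 14727. Oasl1, Oasl2, Oas1a, Oas1g, Oas2 and Oas1c rose between 2.83-fold and 11.0-fold, and Oas3 was not called. The median log2 fold change over the 7 genes was 2.68, against 0.01 over all genes tested. Together the 7 genes took 0.0770%, 0.0448% and 0.0582% of all counts in the poly(I:C) libraries, against 0.0139%, 0.00664% and 0.00840% in the saline libraries.

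**Figure D2:**
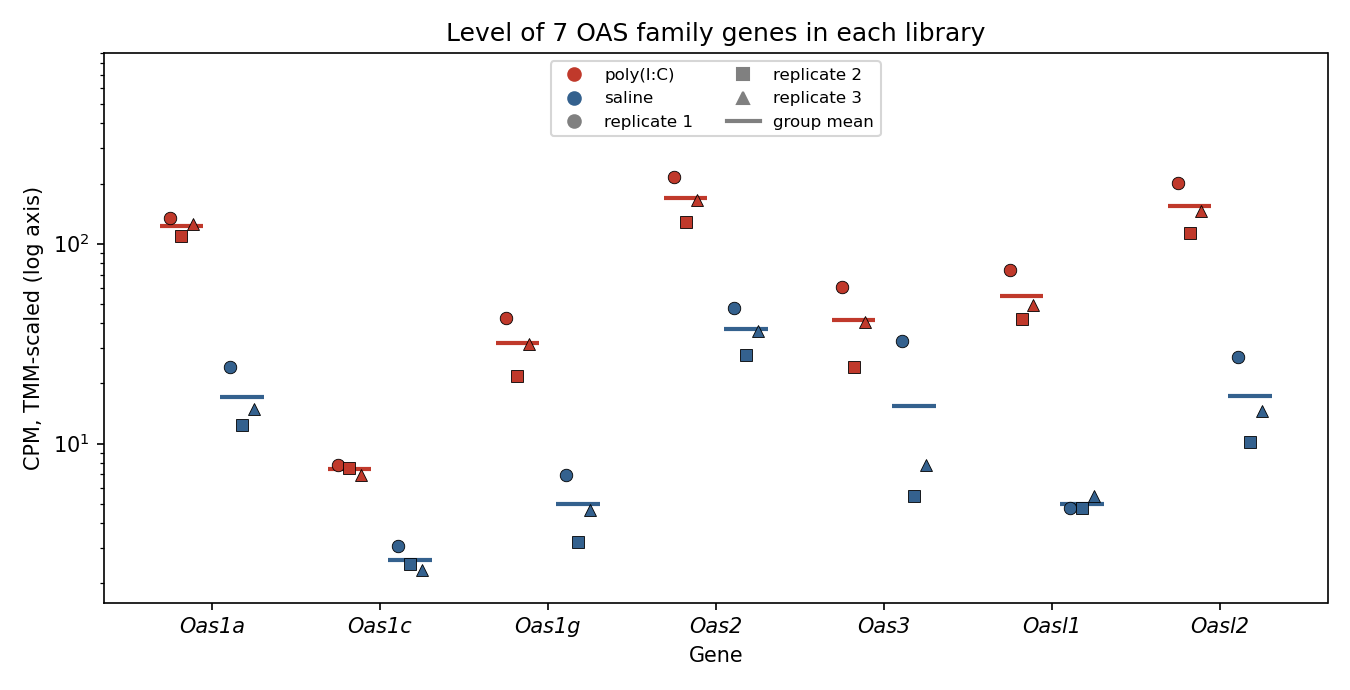
TMM-scaled CPM (log axis) of 7 OAS family genes in each of the 6 libraries, poly(I:C) in red and saline in blue, with marker shapes for replicates and lines for group means (n = 3 each). The groups are apart for every gene except Oas3, where saline replicate 1 (32.7 CPM) lies above poly(I:C) replicate 2 (24.3 CPM).

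Among the active Oas1 copies, Oas1a stood at 134, 110 and 126 CPM with poly(I:C), against 24.0, 12.3 and 14.9 CPM with saline, in the order of replicates 1, 2 and 3 as in all lists of values here. The groups were far apart, and the poly(I:C) libraries lay within 1.22-fold of each other. Oas1a rose 7.21-fold, or 2.85 on the log2 scale (SE 0.25, edgeR adjusted p = 0.00386). Oas1g was lower in level, at 42.4, 21.8 and 31.3 CPM with poly(I:C), against 6.99, 3.23 and 4.66 CPM with saline. It rose 6.41-fold (log2 2.68, SE 0.35, edgeR adjusted p = 0.0221), but was called in only 2 of the 6 fits that each left out 1 library, those leaving out poly(I:C) replicate 2 and saline replicate 1 (edgeR adjusted p between 0.00780 and 0.150 over the 6). Its groups did not overlap, but its poly(I:C) libraries spread over 1.94-fold. The split between both genes is uncertain, because 57.6% of the 50-base stretches of Oas1a transcripts also occur in Oas1g transcripts (GENCODE vM21) and 45.3% of those of Oas1g occur in Oas1a. The sources used here do not give how reads that match both were counted.

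Oas1c, the copy without synthetase activity, was the least abundant member and had the smallest change of the 6 that rose. It had 275, 256 and 242 counts with poly(I:C), or 7.81, 7.57 and 6.96 CPM, against 101, 86 and 79 counts with saline, or 3.07, 2.48 and 2.33 CPM. The libraries of each group lay close together and the groups did not overlap. Oas1c rose 2.83-fold (log2 1.50, SE 0.22, edgeR adjusted p = 0.0325). It was called in only 1 of the 6 fits that each left out 1 library, that without saline replicate 1, with edgeR adjusted p between 0.0314 and 0.203 over the 6 and a log2 fold change between 1.42 and 1.62. Part of its annotated exon sequence, 223 bases, overlaps the gene model Gm43069, and the strand of reads is not marked by the library kit. Of the 50-base stretches of its transcripts, 15.1% also occur in transcripts of other genes, with 6.28% in those of Gm43069. Oas1e, the only one of 4 other mouse Oas1 copies looked for (Oas1d, Oas1e, Oas1f and Oas1h) that had a row, had 0 counts in the poly(I:C) libraries and 1, 0 and 0 counts in the saline libraries.

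Oas2 was the member with the most counts in all 6 libraries. It stood at 217, 128 and 166 CPM with poly(I:C), against 47.7, 27.8 and 36.6 CPM with saline. Every poly(I:C) library was more than 2-fold above the highest saline library, and Oas2 rose 4.55-fold (log2 2.19, SE 0.26, edgeR adjusted p = 0.0136). No 50-base stretch of its transcripts occurs in another gene's.

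Oas3, which in human cells makes most of the 2-5A after infection, did not pass the test. It stood at 60.4, 24.3 and 40.3 CPM with poly(I:C), against 32.7, 5.46 and 7.81 CPM with saline. Saline replicate 1 was 4.93 times the mean of the other saline libraries and fell inside the poly(I:C) range. The log2 difference was 1.44 (SE 0.69, edgeR adjusted p = 0.270). Saline replicate 1 is the library with the high neutrophil and monocyte marker sums given above, and their part in its Oas3 level was not tested. Without that library Oas3 was called higher, at a log2 fold change of 2.63 (edgeR adjusted p = 0.0344), and leaving out poly(I:C) replicate 1 as well, a choice made after seeing the data, at 2.31 (edgeR adjusted p = 0.00570).

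The OAS-like genes had the largest changes. Oasl1, which in mouse lacks synthetase activity and holds back translation of Irf7 mRNA, stood at 73.5, 42.0 and 49.3 CPM with poly(I:C), against 4.77, 4.76 and 5.45 CPM with saline. Its saline libraries lay within 1.15-fold of each other, and saline replicate 1 was not the highest of them. Oasl1 rose 11.0-fold (log2 3.46, SE 0.23, edgeR adjusted p = 0.00108), with the smallest p-value of the family and rank 24 of all genes tested. Oasl2, an active synthetase in mouse, stood at 202, 113 and 147 CPM with poly(I:C), against 27.2, 10.2 and 14.6 CPM with saline. It rose 8.89-fold (log2 3.15, SE 0.40, edgeR adjusted p = 0.0185). The groups were far apart, and saline replicate 1 was 2.19 times the mean of the other saline libraries.

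The groups did not overlap for 6 of the 7 members, with all poly(I:C) libraries above all saline libraries, a pattern that 14.0% of all genes tested showed, while groups that did not overlap in either direction were seen in 28.4%. Some libraries stood apart for the whole family. Poly(I:C) replicate 1, the library with the highest choroid plexus sum and the lowest microglial marker sum, had the highest level of all 7 members, and poly(I:C) replicate 2 had the lowest poly(I:C) level of 6. Saline replicate 1 had the highest saline level of 6 members, Oasl1 being the exception. The part of those marker differences was not tested. Without saline replicate 1 all 7 members were called higher, with 1.21% of all genes tested called. The same held when poly(I:C) replicate 1 was left out too, with 3.85% of all genes called. The number of calls rested on the others: 2 members, Oas1a and Oasl1, were called when the third replicate of either group was left out, 4 when poly(I:C) replicate 1 or saline replicate 2 was, and 5 when poly(I:C) replicate 2 was. Calls over all genes fell too, from 0.957% with all libraries to 0.338% without poly(I:C) replicate 3 and 0.348% without saline replicate 3. They were 0.735%, 0.849% and 0.45% without poly(I:C) replicate 1, poly(I:C) replicate 2 and saline replicate 2. Oas1a and Oasl1 were called in all 6 fits that each left out 1 library, Oas2 and Oasl2 in 4, Oas1g in 2 and Oas1c and Oas3 in 1, and no member changed direction in any of them.

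**Figure D3:**
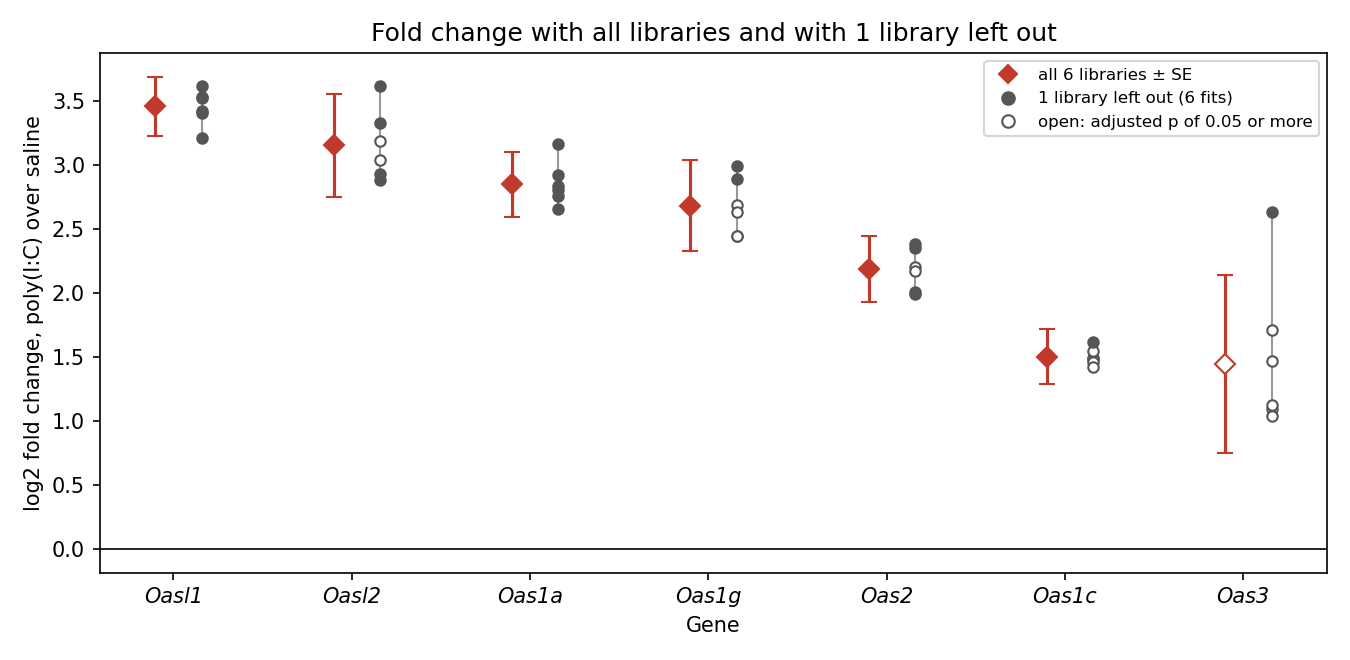
Log2 fold change of poly(I:C) over saline for 7 OAS family genes, with all 6 libraries (red diamonds, bars are SE) and in the 6 fits that each left out 1 library (grey circles, with a line over their range). Open symbols have an adjusted p of 0.05 or more (edgeR). Oasl1 and Oas1a are filled throughout, and Oas3 ranges from 1.04 to 2.63.

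To compare levels between genes, CPM were divided by the length of each gene's exons in kilobases (GENCODE vM21 on GRCm38, which may differ from the annotation used for counting). With poly(I:C), Oas1a averaged 65.4 ± 6.61 CPM per kilobase, Oasl2 49.3 ± 14.4, Oas2 42.9 ± 11.3, Oasl1 24.9 ± 7.48, Oas1g 16.1 ± 5.21, Oas3 8.83 ± 3.84 and Oas1c 3.25 ± 0.19 CPM per kilobase (SD, n = 3). The poly(I:C) ranges of each neighbouring pair in that order overlapped, except Oas3 and Oas1c, but the order was the same inside each of the 3 poly(I:C) libraries. These levels were not corrected for reads shared between genes. Of 50-base stretches, 57.6% in Oas1a, 45.7% in Oas1g and 15.1% in Oas1c occur in other genes' transcripts, against 0% in Oas2 and Oasl1. The handling of such reads could shift a gene alike in every library, so the places of Oas1a and Oas1g are uncertain. With saline, Oas2 averaged 9.44 ± 2.52 and Oas1a 9.07 ± 3.26 CPM per kilobase, which did not differ beyond their spread, followed by Oasl2 at 5.55 ± 2.81, Oas3 at 3.25 ± 3.20, Oas1g at 2.51 ± 0.96, Oasl1 at 2.27 ± 0.18 and Oas1c at 1.15 ± 0.17 CPM per kilobase (SD, n = 3). Within single saline libraries, Oas2 was first in replicates 2 and 3 and Oas1a in replicate 1. Oasl1 lay above Oas1g and Oas3 in each poly(I:C) library and in saline replicates 2 and 3, but below both in saline replicate 1.

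The share of the family's counts held by each gene, a measure that does not depend on scaling between libraries, is given as values, because the test used for it could not reach 0.05 with 3 libraries a group. Oasl2 held 27.4%, 25.3% and 25.9% of the 7 genes' counts in the poly(I:C) libraries, against 18.5%, 15.4% and 16.9% in the saline libraries. Oas2 held 29.4%, 28.7% and 29.3% with poly(I:C), against 32.6%, 42.0% and 42.4% with saline. The shares of Oasl2 and Oasl1 were above those of saline in every poly(I:C) library, those of Oas2, Oas3 and Oas1c were below, and those of Oas1a and Oas1g overlapped. For Oas3 the gap was narrow, with 8.19% in poly(I:C) replicate 1 against 8.23% in saline replicate 2. Its mean difference of −6.28 percentage points shrank to −1.71 without saline replicate 1. A high share of 1 gene lowers those of the others in the same library. For the 5 genes that did not overlap, an exact two-sided permutation test gave p = 0.100 (adjusted p = 0.140 over 7 genes), the smallest p that this test can give with 3 libraries against 3.

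**Figure D4:**
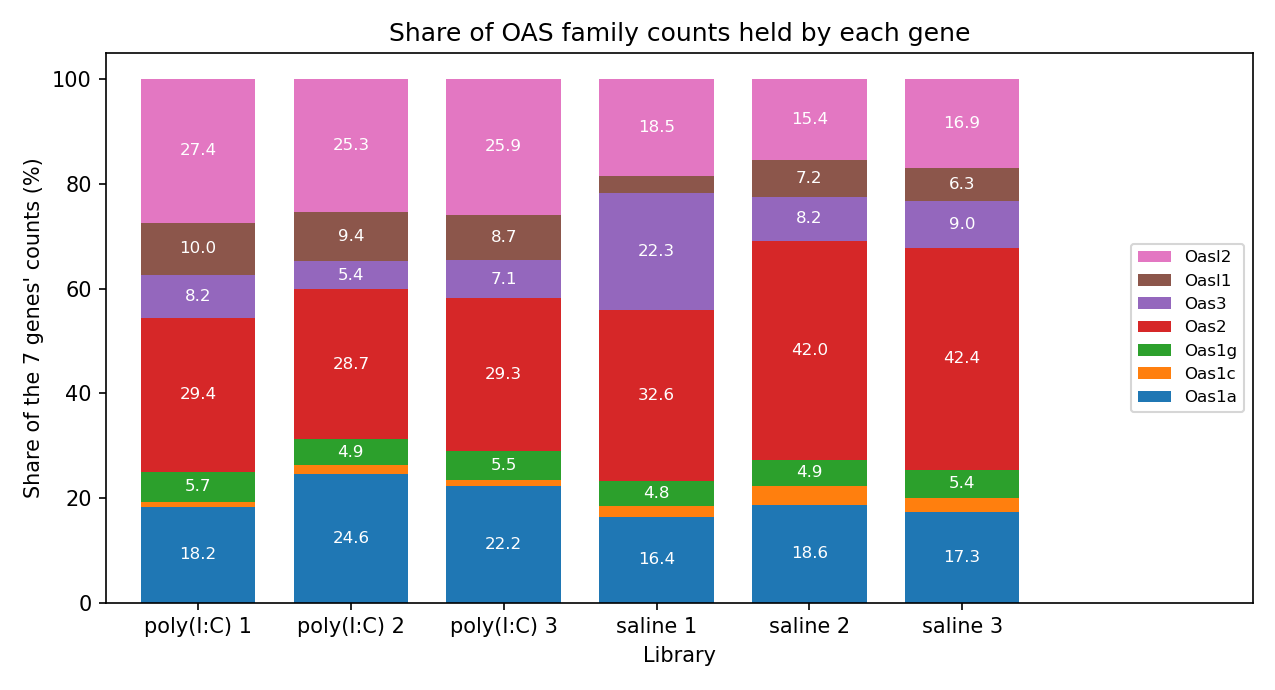
Percent of the summed counts of 7 OAS family genes held by each gene (colours, values printed where above 4%), one bar per library with poly(I:C) left of saline. Oasl2 (pink) lies between 25.3% and 27.4% in the poly(I:C) libraries and between 15.4% and 18.5% in the saline libraries, and Oas3 (purple) takes 22.3% in saline replicate 1.

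Of 3 other genes of the 2-5A pathway, 0 were called in either direction in edgeR, against 0.957% of all genes tested. With only 3 genes, 0 calls cannot be told apart from that share. Abce1 was the 1 gene of the 3 with an unadjusted p under 0.05. DESeq2 also called 0 of the 3, and limma-voom with quality weights called Abce1 higher. Of all genes tested, DESeq2 called 6.78% in either direction, and limma-voom called 8.61% higher. Abce1, which encodes a factor needed for ribosome recycling, stood at 107, 82.7 and 93.0 CPM with poly(I:C), against 78.4, 71.8 and 71.6 CPM with saline. The groups did not overlap, but the difference was not called (log2 0.35, SE 0.11, edgeR adjusted p = 0.173). Akap7 and Pde12, which encode phosphodiesterases that break down 2-5A, had log2 differences of 0.30 and 0.07 with edgeR adjusted p of 0.258 and 0.766.

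Of 8 genes of double-stranded RNA sensing, 7 were called higher and Mavs, the adaptor of the RIG-I-like receptors, was not (log2 0.11, SE 0.08, edgeR adjusted p = 0.417). Of all genes tested, 0.883% were called higher. The lists in this paragraph were chosen with earlier results of these data known. Zbp1, a sensor of Z-form nucleic acid, rose 11.3-fold and Ifih1, which encodes the long double-stranded RNA sensor MDA5, rose 3.92-fold. Rigi, the RIG-I gene, rose 3.27-fold and Tlr3, the endosomal receptor for double-stranded RNA, rose 2.00-fold. Of 6 genes that carry the interferon signal to OAS promoters, 2 were called higher, both of them parts of the ISRE-binding complex. Stat2 rose 3.32-fold and Irf9 2.22-fold, while the receptor genes Ifnar1 and Ifnar2 and the kinase genes Jak1 and Tyk2 had log2 differences between −0.20 and 0.03 and were not called. Jak1 stood at 277, 288 and 306 CPM with poly(I:C), below its 354, 313 and 337 CPM with saline. Its edgeR p was 0.0487 unadjusted and 0.232 adjusted. Irf7, whose mRNA is the reported target of Oasl1, stood at 404, 283 and 307 CPM with poly(I:C), against 28.6, 17.0 and 17.8 CPM with saline, and rose 15.7-fold. It too was highest in replicate 1 of each group. Cgas, a DNA sensor with the same nucleotidyltransferase fold as OAS proteins, stood at 69.4, 47.2 and 58.9 CPM with poly(I:C), against 36.7, 34.0 and 36.7 CPM with saline. It was not called in edgeR (log2 0.71, SE 0.15, edgeR adjusted p = 0.104), but was called higher in DESeq2 and limma-voom. Those tools called 3.76% and 8.61% of all genes tested higher. Sting1, the adaptor downstream of Cgas, had a log2 difference of −0.23 (SE 0.16, edgeR adjusted p = 0.406).

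**Figure D5:**
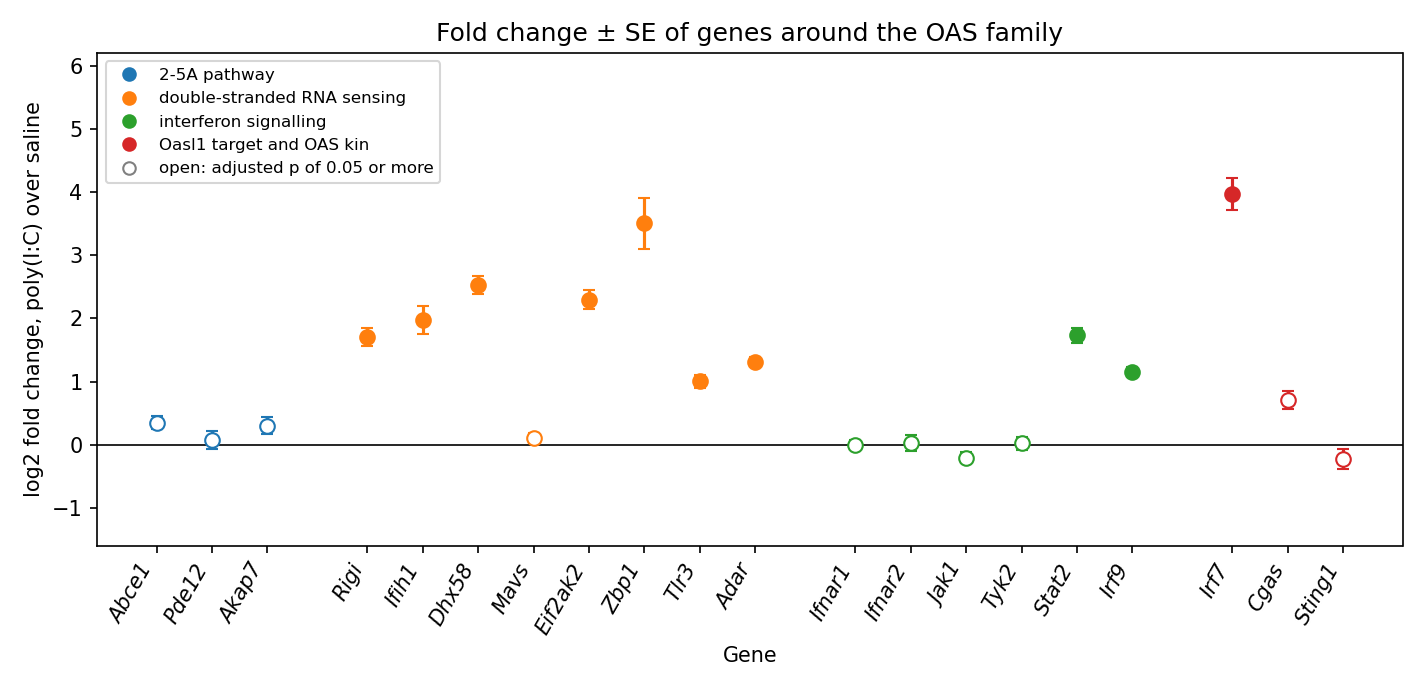
Log2 fold change of poly(I:C) over saline (points, bars are SE, 3 libraries a group) for 20 genes in 4 lists around the OAS family, with open symbols for an adjusted p of 0.05 or more in edgeR. All listed sensing genes except Mavs, and also Stat2, Irf9 and Irf7, are filled and lie above 0. Mavs and the receptor and kinase genes are open and lie near 0.

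No gene next to the OAS clusters was called in edgeR, where 0.957% of all genes tested were. With only 6 neighbours tested, 0 calls cannot be told apart from that share. Of 15 protein-coding neighbours, counted as 3 on each side of each cluster plus the other Oas1 copies inside, 11 had a row and 6 were tested, with log2 differences between −0.35 and 0.66 and edgeR adjusted p of 0.177 or more. Sppl3, downstream of Oasl1, was the 1 gene of the 6 with an unadjusted p under 0.05 in edgeR (log2 −0.35, SE 0.11). DESeq2 called 0 of the 6, against 6.78% of all genes tested. Limma-voom called Sppl3 lower, as it did 1608 of 14727 genes. Ptpn11, beyond the Oas1a end of the larger cluster, had a log2 difference of 0.00 (SE 0.08, edgeR adjusted p = 0.996). Beyond Oasl1, 2210016L21Rik had −0.03 (SE 0.12, edgeR adjusted p = 0.904).

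The genes whose pattern over the 6 libraries lay closest to the family's mean pattern were taken from 10665 tested genes that averaged 5 CPM or more. Closeness was the root mean square difference between log2 CPM profiles, each centred on its own mean. Ddx60, an interferon-inducible helicase gene, was nearest at 0.14 on the log2 scale, followed by Phf11b at 0.19, the nuclear body gene Sp100 at 0.19, and the immunity-related GTPase genes Iigp1c and Tgtp2 at 0.21 and 0.22. Within the family the distance to the same mean was 0.12 for Oas1g, 0.19 for Oas2, 0.23 for Oas1a, 0.37 for Oasl2, 0.54 for Oasl1, 0.59 for Oas1c and 0.64 for Oas3. The mean includes the members themselves, and with 2 groups of 3 libraries it mostly reflects the difference between treatments.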

How the data were processed

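Microglia had been enriched from perfused cerebella with CD11b magnetic beads, and SMARTer-amplified full-length cDNA went into Nextera XT libraries, per the labels' protocols. The authors deposited raw read counts per gene symbol, 1 column per library. Per the submitters' processing notes, fastp, HISAT2 and HTSeq were used with build GRCm39; the sources used here give no versions, settings or annotation. No molecular identifiers are mentioned, so counts are of reads. PCR duplicates and reads shared by close paralogs can therefore affect them.

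From these counts, poly(I:C) was compared with saline in edgeR 4.0.16 (R 4.3.3): filterByExpr within groups (14727 of 23491 genes kept), TMM scaling, and the quasi-likelihood F test over all 6 libraries with no covariate. Standard errors were obtained by dividing the size of the log2 fold change by the root of the F statistic. Only the edgeR fit was tested on simulated counts. Alternatives were other scalings (RLE, upper-quartile, total counts), no filter or a minimum of 5 CPM in 3 libraries, DESeq2 1.42.0, limma-voom with quality weights (limma 3.58.1), a replicate block, and each library left out. A fit that left out the first replicate of both groups was added after seeing the data. Replicates differed by more than counting noise. The genes and lists were chosen with earlier results of these data known. All 8 members, the listed pathway genes, cluster neighbours and the 5 most similar genes are named, except that some listed genes are not reported here. Coordinates are those of RefSeq's promoter table on GRCm38.p6, not of the counting build.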

Additional observations from a re-analysis of the deposited data

How the results depend on the processing

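All 7 genes kept their direction in every alternative run. The count of called members was 6 under each other scaling and filter and in DESeq2, 7 in limma-voom, 7 without replicate 1 of both groups (chosen after seeing the data), and between 2 and 7 when 1 library was left out. Their median log2 fold change was between 2.44 and 2.99 without 1 library. The count of all genes called depended more on the tool. It was 141 in edgeR (92.2% of them higher), 1005 in DESeq2 (55.4% higher) and 2876 in limma-voom (44.1% higher). As shares of all genes tested, these were 0.957%, 6.78% and 19.5%, and limma-voom called 8.61% higher. The other scalings called between 0.91% and 1.2%, no filter 0.745% and the 5 CPM filter 1.53%. The count was 569 (3.85%) without both replicates 1, and between 51 and 183 without 1 library. Oas3 passed as higher in limma-voom (log2 2.24, adjusted p = 0.0159); its adjusted p was between 0.0711 and 0.302 in the other 7 alternatives with all libraries. With the replicate number as a replicate block, 260 genes (1.77% of all tested) and 5 members were called, and Oas1c missed the threshold (edgeR adjusted p = 0.0587). Deviations of same-numbered libraries from their group means correlated at r = 0.11, −0.12 and 0.19 over genes. Those of differently numbered libraries lay between −0.38 and 0.33. With 3 libraries a group, such correlations cannot decide whether the numbers pair the samples. With the block the SE fell from 0.26 to 0.07 for Oas2 and rose from 0.22 to 0.23 for Oas1c, the only member whose SE rose. The causes were not tested. Oas1c was the member with the fewest counts (between 79 and 275 a library), but had the smallest SE of the 7 in edgeR (0.22). The part of counting error was not tested.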
